A study of Mustela putorius furo with 10 samples.

Results

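The antioxidant enzyme genes described here are 10 genes whose products remove superoxide and peroxides or keep the thioredoxin system reduced: SOD1, SOD2, CAT, GPX1, GPX4, PRDX1, PRDX5, TXN, TXNRD1 and HMOX1. They were listed by symbol and matched to the array through the RefSeq ferret gene name of each target sequence. Of the 10 genes, 7 were matched, and these 7 stood among 26303 genes tested. Of these 26303, 9276 carried a gene symbol, and the others were target sequences without a symbol, each counted on its own. Shares of all genes therefore mix genes with target sequences that were not merged into genes. SOD1, PRDX1 and HMOX1 were not matched by symbol and are not analysed here. Each of the 7 measured genes had 1 target sequence with 4 probes, and the ferret's signal was well above background on all 10 arrays.

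PBMC RNA (peripheral blood mononuclear cells, isolated by the authors on a Ficoll gradient) of male ferrets aged 3 months was measured, with 1 array per animal. The control group comprised 6 ferrets kept at 22 °C, and the cold group comprised 4 ferrets kept at 4 °C for 1 week. The cold-exposed ferrets were housed individually. The labels state this of the cold group only, and the housing of the control group is not stated. The effects of temperature and of any difference in housing therefore cannot be told apart. Neither group carried a genetic modification, and both shared the diet, the light cycle and the anaesthesia before sampling. Each array held the RNA of 1 ferret, labelled with Cy3, beside a Cy5-labelled reference pool that mixed PBMC with other tissues. A level is therefore given as a log2 ratio of Cy3 to Cy5 for 1 gene, and a log2 change is the mean log2 ratio of the cold arrays minus that of the control arrays. Log2 ratios are not compared between genes. No array had swapped dyes, so that a dye effect shared by all arrays stays in the ratios.

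Superoxide, a by-product of respiration and a weapon of phagocytes, is converted to hydrogen peroxide by superoxide dismutases. Catalase, glutathione peroxidases and peroxiredoxins then reduce hydrogen peroxide or lipid peroxides, with electrons that come from NADPH through glutathione or thioredoxin. Red cells are rich in catalase and some peroxiredoxins, while phagocytes, which make superoxide on purpose, carry their own antioxidant enzymes.

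The median log2 change over the 7 measured genes was 0.33, beside -0.01 over all genes tested, but it was below zero under 2 other scalings of the arrays (-0.33 and -0.22 relative to all genes). PRDX5 was higher in the cold group by 0.42 (SE 0.12) and CAT was lower, at -0.48 (SE 0.13), and these 2 of the 7 genes passed an unadjusted limma p under 0.01, a threshold taken from the study's methods, which applied it to another test. The direction of PRDX5, but not that of CAT, turned under the same scalings, which are described with the other genes after the values. Of all genes tested, 8.64% passed that threshold, 5.21% as higher in the cold group and 3.43% as lower. After Benjamini-Hochberg adjustment none of the 7 genes passed 0.05 in limma, and neither did any other gene (0%), the lowest adjusted p being 0.0576. At an unadjusted limma p under 0.05, 5 of the 7 genes passed, 4 of them higher and 1 lower, where 24.7% of all genes did. The control and cold arrays did not overlap in PRDX5 alone among the 7 genes, compared with 5.22% of all genes.

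**Figure D1:**
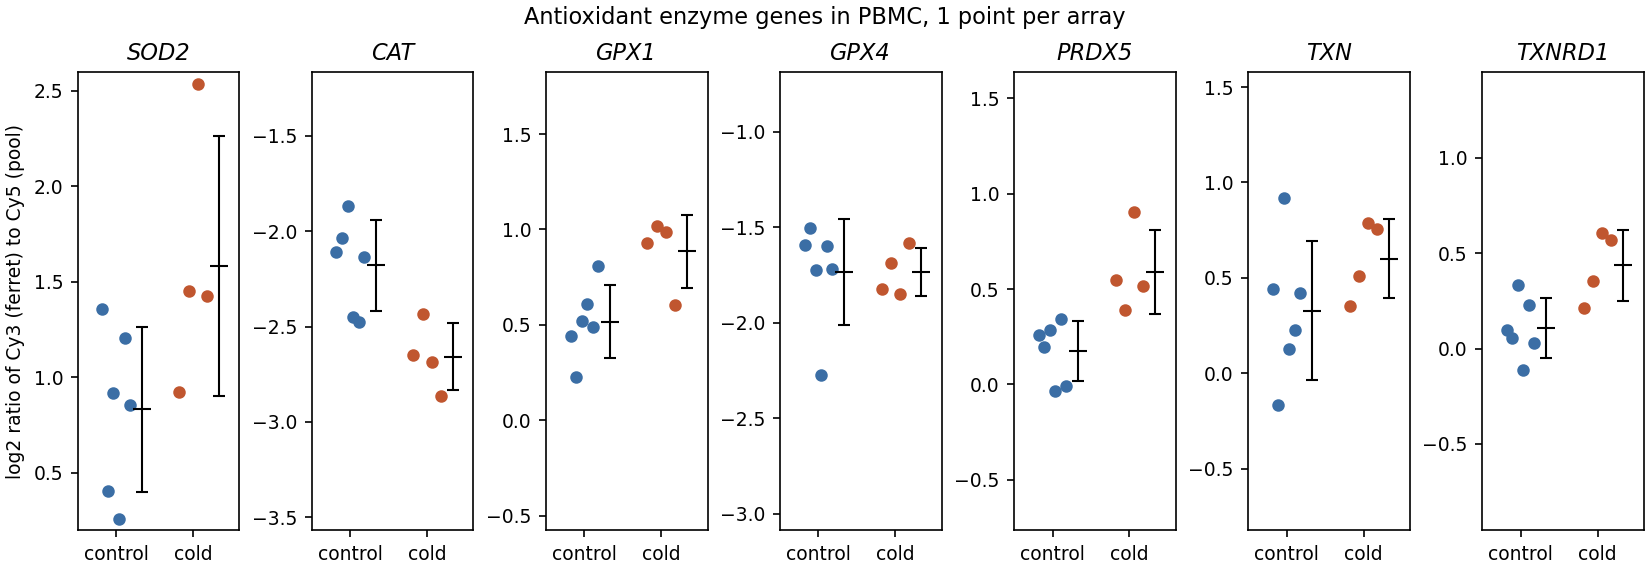
Log2 ratio of Cy3 (ferret) to Cy5 (reference pool) of the 7 measured antioxidant enzyme genes, 1 point per array, for 6 control and 4 cold ferrets. Bars give the mean and SD of each group, and all panels span the same height on the log2 axis. The groups are apart in PRDX5 alone, and cold replicate 3 has the highest point in SOD2, PRDX5 and TXNRD1.

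SOD2 encodes the manganese superoxide dismutase of the mitochondrial matrix. Its log2 ratio was lowest at 0.26, 0.89 at the median and highest at 1.36 in the 6 control ferrets. The 4 cold ferrets had log2 ratios of 0.92, 1.45, 2.54 and 1.42. Cold replicate 1 lay within the control range and the other cold arrays lay above it, replicate 3 by the widest margin. The log2 change was 0.75 (SE 0.30, 95% confidence interval 0.09 to 1.42), a fold of 1.68 that did not pass the threshold (limma p = 0.0301, adjusted p = 0.163, exact permutation p = 0.0429). Without cold replicate 3 it was 0.43, which is lower by more than 1.5 times, and without cold replicate 1 it was 0.97 and passed, the 1 setting of 23 in which it did. By the 2 positions an array can take on a slide, the log2 change of SOD2 was 0.47 at position 1 (4 control and 2 cold arrays) and 0.92 at position 2 (2 and 2). The other genes of superoxide dismutation that were tested, SOD3 and CCS, which encode the extracellular enzyme and the copper chaperone of SOD1, had log2 changes of 0.34 (exact permutation p = 0.548) and 0.016 (p = 0.895), so SOD2 had the lowest p of this list, in which no gene of 3 passed.

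CAT encodes catalase, the haem enzyme of peroxisomes that splits hydrogen peroxide without a cofactor such as NADPH. Control log2 ratios of CAT ran from -2.48 over a median of -2.12 to -1.87. In the cold ferrets they were -2.65, -2.44, -2.68 and -2.87. Of the 4 cold arrays, 3 lay below every control array, and cold replicate 2 lay above control replicates 4 and 5, so that the groups overlapped. CAT had a log2 change of -0.48 (SE 0.13, interval -0.77 to -0.19), with limma p = 0.00420, adjusted p = 0.0924 and exact permutation p = 0.0190. It was -0.36 within slide position 1 and -0.60 within position 2. The call did not hold without cold replicate 1 (log2 change -0.48), cold replicate 3 (-0.47) or cold replicate 4 (-0.41).

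In the Cy3 channel alone CAT did not pass the threshold. With the channels normalized apart (quantile normalization of log2 intensity), the Cy3 log2 intensity of CAT was 11.65 ± 0.15 (SD, n = 6) in control and 11.50 ± 0.18 (n = 4) in cold ferrets, a difference of -0.15 (limma p = 0.200, exact permutation p = 0.181). The Cy5 log2 intensity, which measures the same pool on every array, was 10.45 ± 0.23 in control and 10.69 ± 0.10 in cold ferrets, a difference of 0.24 (limma p = 0.0466, exact permutation p = 0.0571).

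GPX1 and GPX4 are selenium enzymes that reduce peroxides with glutathione. GPX1, the main form of the cytosol, had control log2 ratios from 0.23 over a median of 0.50 to 0.81. The cold ferrets had 0.93, 1.02, 0.99 and 0.60. Cold replicate 4 lay within the control range and the other cold arrays above it. The log2 change of GPX1 was 0.37 (SE 0.12, interval 0.11 to 0.63), just short of the threshold (limma p = 0.0104, adjusted p = 0.117, exact permutation p = 0.0238). GPX1 passed in 4 of the 23 alternative settings, among them those without control replicate 6 and without cold replicate 4.

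GPX4, which reduces lipid peroxides within membranes, had control log2 ratios from -2.27 over a median of -1.66 to -1.50. Its cold log2 ratios were -1.82, -1.68, -1.85 and -1.58, all within the control range. The log2 change of GPX4 was -0.00036 (SE 0.14, exact permutation p = 1), with an interval of -0.31 to 0.31. The 4 GPX4 probes disagreed, with log2 changes of 0.11, 0.11, 0.06 and -0.28, while in each of the other 6 genes all 4 probes had the sign of the gene.

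**Figure D2:**
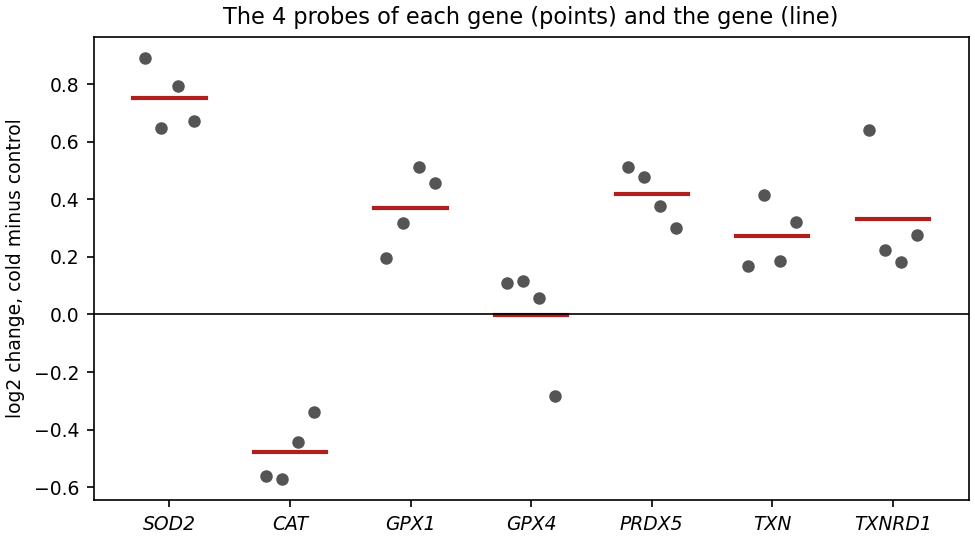
Log2 change (cold minus control) of each of the 4 probes of the 7 genes (points) and of the gene, their mean (red line). The probes of 6 genes lie on 1 side of zero, and 1 probe of GPX4 lies below zero at -0.28.

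Among the other glutathione peroxidases, GPX3, the secreted plasma form, passed the threshold. Its log2 ratio was lowest at -3.04, -2.35 at the median and highest at -1.98 in control ferrets, and -3.46, -2.89, -3.15 and -3.18 in cold ferrets. Cold replicate 2 lay above control replicates 4 and 5. The log2 change of GPX3 was -0.68 (SE 0.21, limma p = 0.00915, adjusted p = 0.113, exact permutation p = 0.0286). Catalase and the glutathione peroxidases gave 2 genes lower and none higher past the threshold, of 5 tested, where 3.43% of all genes passed as lower.

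Peroxiredoxins reduce peroxides through a reactive cysteine and are recycled mostly by thioredoxin. PRDX5, found in mitochondria, peroxisomes and the cytosol, had control log2 ratios from -0.03 over a median of 0.23 to 0.34. In the cold ferrets its log2 ratios were 0.55, 0.39, 0.90 and 0.52. The lowest cold array was thus above the highest control array. The log2 change was 0.42 (SE 0.12, interval 0.16 to 0.67), a fold of 1.34 (limma p = 0.00428, adjusted p = 0.0927), and the exact permutation p of 0.00476 was the smallest that 10 arrays allow. It was 0.37 within slide position 1 and 0.40 within position 2. Without cold replicate 3 the log2 change of PRDX5 was 0.31 and no longer passed. In the Cy3 channel alone the difference of PRDX5 was 0.52 (limma p = 0.00210), and the pool's Cy5 signal differed by 0.16 (exact permutation p = 0.0143).

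The other peroxiredoxins went both ways. PRDX6, which reduces phospholipid peroxides with glutathione, had log2 ratios from -0.45 to -0.21 in control ferrets and of -0.20, -0.05, 0.21 and 0.11 in cold ferrets, without overlap. Its log2 change was 0.36 (SE 0.09, limma p = 0.00275, exact permutation p = 0.00476). PRDX2, the abundant red cell form, had control log2 ratios from -0.90 over a median of -0.30 to 1.40 and cold log2 ratios of -1.59, -2.38, -2.55 and -0.64. Only cold replicate 4 lay within the control range. The log2 change of PRDX2 was -1.76 (SE 0.51, limma p = 0.00559, exact permutation p = 0.0381), the widest of the tested antioxidant genes. PRDX3, the mitochondrial form, had a log2 change of -0.48 (SE 0.14, limma p = 0.00645, exact permutation p = 0.0190), with cold replicate 2 within the control range. Of 7 genes tested in the peroxiredoxin list, 2 passed as higher and 2 as lower, beside 5.21% and 3.43% of all genes.

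Thioredoxin passes electrons to peroxiredoxins and other proteins, and thioredoxin reductase restores it at the cost of NADPH. TXN, the cytosolic thioredoxin, had control log2 ratios from -0.16 over a median of 0.32 to 0.92. Its cold log2 ratios were 0.35, 0.51, 0.79 and 0.76, all within the control range. The log2 change was 0.27 (SE 0.18, interval -0.13 to 0.67, limma p = 0.163, exact permutation p = 0.205). Without control replicate 2 it was 0.17, which is lower by more than 1.5 times. In the Cy3 channel alone the TXN log2 intensity was 13.99 ± 0.14 (SD, n = 6) in control and 14.49 ± 0.07 (n = 4) in cold ferrets, a difference of 0.49 with limma p = 1.4e-04, adjusted p = 0.0345 and exact permutation p = 0.00476. TXN was the 1 gene of the 7 to pass the adjusted threshold in that channel, as did 2.82% of all genes. The pool's Cy5 signal of TXN was higher on the cold arrays by 0.28 (exact permutation p = 0.105).

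TXNRD1, the cytosolic thioredoxin reductase and a selenoprotein, had control log2 ratios from -0.11 over a median of 0.08 to 0.33. The cold ferrets had 0.21, 0.36, 0.61 and 0.57. Cold replicate 1 lay within the control range and the other 3 above it. The log2 change was 0.33 (SE 0.11, interval 0.09 to 0.57, limma p = 0.0117, adjusted p = 0.120, exact permutation p = 0.0190). TXNRD1 passed in 6 of the 23 settings, among them those without control replicate 3 and without cold replicate 1.

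In the list of thioredoxin and glutaredoxin, MSRA and GLRX passed, both higher, of 9 tested, where 5.21% of all genes passed as higher. MSRA, which repairs oxidised methionine with electrons from thioredoxin, had log2 ratios from -0.11 to 0.34 in control ferrets and of 0.71, 0.61, 1.21 and 0.62 in cold ferrets. The groups did not overlap, and the log2 change over 20 probes was 0.72 (SE 0.13), a fold of 1.65 (limma p = 1.9e-04, adjusted p = 0.0576, exact permutation p = 0.00476). GLRX, the cytosolic glutaredoxin, had a log2 change of 0.53 (SE 0.14, limma p = 0.00318, exact permutation p = 0.0143).

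The wider set comprised 88 genes in 10 lists of the antioxidant system, the 10 enzyme genes included, of which 61 were tested. Of these 61, 8 genes passed as higher and 4 as lower, beside 5.21% and 3.43% of all genes, and none passed after adjustment over all genes in the fit as reported. At an unadjusted limma p under 0.05 there were 16 higher and 8 lower, where 24.7% of all genes passed in either direction. Without the 7 enzyme genes the counts were 7 higher and 3 lower of 54 tested, with a median log2 change of 0.13. The groups did not overlap in 6 of the 61 genes, compared with 5.22% of all genes.

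**Figure D3:**
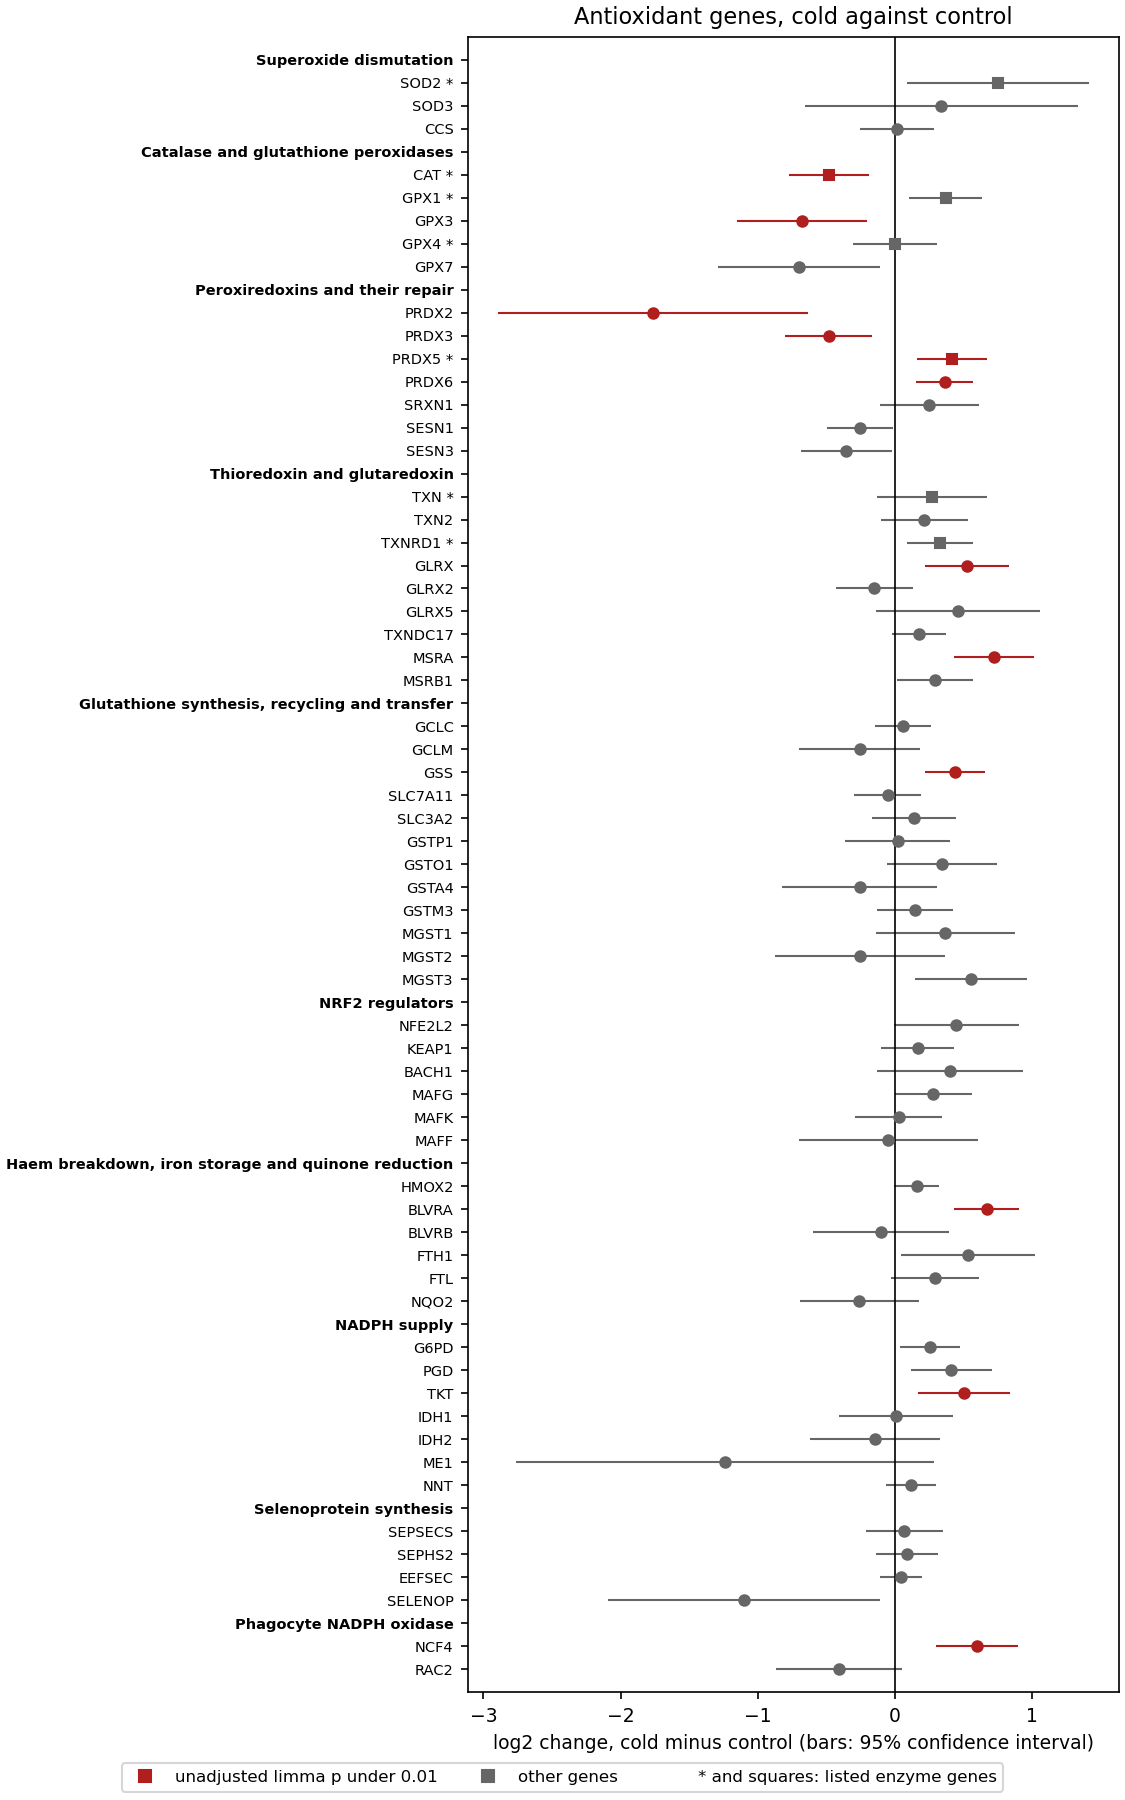
Log2 change (cold minus control) with its 95% confidence interval for the 61 tested genes of the antioxidant lists, grouped by list (bold). Red marks an unadjusted limma p under 0.01, and squares with an asterisk mark the 7 enzyme genes. The 12 red genes comprise 8 to the right and 4 to the left of zero, with PRDX2 farthest to the left.

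BLVRA, the biliverdin reductase that makes bilirubin from the product of haem oxygenase, had the lowest p of the wider set. Its log2 ratio ran from -0.22 to 0.16 in control ferrets and from 0.44 to 0.94 in cold ferrets, without overlap. BLVRA had a log2 change of 0.67 (SE 0.11), a fold of 1.59 (limma p = 6.9e-05, adjusted p = 0.0576, exact permutation p = 0.00476). It was the 1 gene of 6 tested to pass in the list of haem breakdown, iron storage and quinone reduction, where 8.64% of all genes passed.

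GSS, glutathione synthetase, was likewise the 1 gene of 12 to pass in its list, beside 8.64% of all genes. The log2 ratio of GSS ran from -1.11 to -0.71 in control ferrets and from -0.62 to -0.27 in cold ferrets, without overlap, and its log2 change was 0.44 (SE 0.10, limma p = 9.4e-04, exact permutation p = 0.00476). GCLC and GCLM, the subunits of the ligase that makes the glutathione precursor, had log2 changes of 0.058 (exact permutation p = 0.50) and -0.26 (p = 0.281). In the list of NADPH supply, TKT, the transketolase of the pentose phosphate pathway, passed with a log2 change of 0.50 (SE 0.15, limma p = 0.00667, exact permutation p = 0.0238), 1 of 7 tested. It passed in 12 of 23 alternative settings, and not without control replicate 1, 2 or 6 or cold replicate 2, 3 or 4.

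Of 2 tested genes of the phagocyte NADPH oxidase, the source of the respiratory burst, 1 passed, as higher, where 5.21% of all genes did. RAC2, the small GTPase of the complex, had a log2 change of -0.41 (limma p = 0.0767, exact permutation p = 0.119) and did not pass. NCF4, its p40 subunit, had log2 ratios from 1.02 to 1.504 in control ferrets and from 1.61 to 2.12 in cold ferrets, without overlap, and a log2 change of 0.60 (SE 0.14, limma p = 0.00109, exact permutation p = 0.00952).

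No gene passed in the lists of NRF2 regulators, the transcription factors and partners that govern many antioxidant genes, or of selenoprotein synthesis in the fit as reported. The lowest p among 6 tested NRF2 regulators was that of MAFG, a small Maf partner, with a log2 change of 0.28 (interval -0.0016 to 0.56, limma p = 0.0511, exact permutation p = 0.0762). In the Cy3 channel alone MAFG passed, at 0.45. NFE2L2, which encodes NRF2 itself, had a log2 change of 0.45 (interval -0.0046 to 0.90, limma p = 0.0520, exact permutation p = 0.0857). The lowest p among the 4 genes of selenoprotein synthesis and transport was that of SELENOP, the plasma selenium carrier, with a log2 change of -1.10 (interval -2.09 to -0.11, limma p = 0.0322, exact permutation p = 0.0714). Its ferret signal was near background, since 1 of its 4 probes was well above background in Cy3 on 1 array only and was left out, and no probe was so on all 10 arrays. The change was -0.029 in the Cy3 channel alone and -0.25 with scanner-processed intensities, and it passed with the replicate block, at -1.18, and without control replicate 5, at -1.38. The values of NFE2L2, GCLC, GCLM and RAC2 are given for their place in the pathway, and their choice was made after their values were seen.

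The direction of most of these changes depended on how the arrays were scaled. With each array centred on its median in place of loess, the median log2 change of all genes was -0.43. Relative to that shift, SOD2 was at 0.20, TXNRD1 at -0.045, PRDX5 at -0.23, TXN at -0.33, GPX1 at -0.37, GPX4 at -0.57 and CAT at -1.02. In the authors' deposited table of log2 values, which has neither loess nor background subtraction, SOD2 was higher by 0.29 while TXNRD1 (-0.016), PRDX5 (-0.075), GPX1 (-0.20), TXN (-0.22), GPX4 (-0.43) and CAT (-0.90) were lower, and none of the 7 genes passed in either setting. CAT was lower under all 23 alternatives tried, by 0.15 at the least. SOD2 was above the median of all genes under all 23. Among the other genes of the wider set that passed, PRDX2, PRDX3 and GPX3 were lower and MSRA was higher under all 23. PRDX2 passed the unadjusted 0.01 in 17 of these, GPX3 in 9, PRDX3 in 7 and MSRA in 21. In the Cy3 channel alone the difference was -0.26 for GPX3 and -0.30 for PRDX3, and neither passed. PRDX2 did not pass without control replicate 1 or 2 or cold replicate 1, 2 or 3, and GPX3 did not without control replicate 1, 2, 3 or 6 or cold replicate 1, 3 or 4. PRDX3 passed without control replicate 4 or cold replicate 2, and in no other setting that left out 1 array. PRDX6 did not pass without cold replicate 3 or 4, and GLRX did not without cold replicate 3. BLVRA, GSS, GLRX and NCF4 turned under median centring as computed but lay above the median of all genes there, by 0.20, 0.18, 0.047 and 0.021. PRDX6 and TKT turned both under median centring, where they lay below the median of all genes at -0.18 and -0.19, and in the authors' table.

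In the Cy3 channel alone, 4 of the 7 genes passed the unadjusted threshold, all higher (GPX1, PRDX5, TXN and TXNRD1), where 9.84% of all genes did. The Cy5 signal of the pool differed between arrays, with ranges that overlapped between the groups. In Cy5, 27.0 to 54.9% of the spots of a control array and 40.5 to 64.0% of those of a cold array were well above background, beside 50.4 to 63.5% in Cy3 over both groups. The part of the Cy5 brightness in the values above was not tested.

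**Figure D4:**
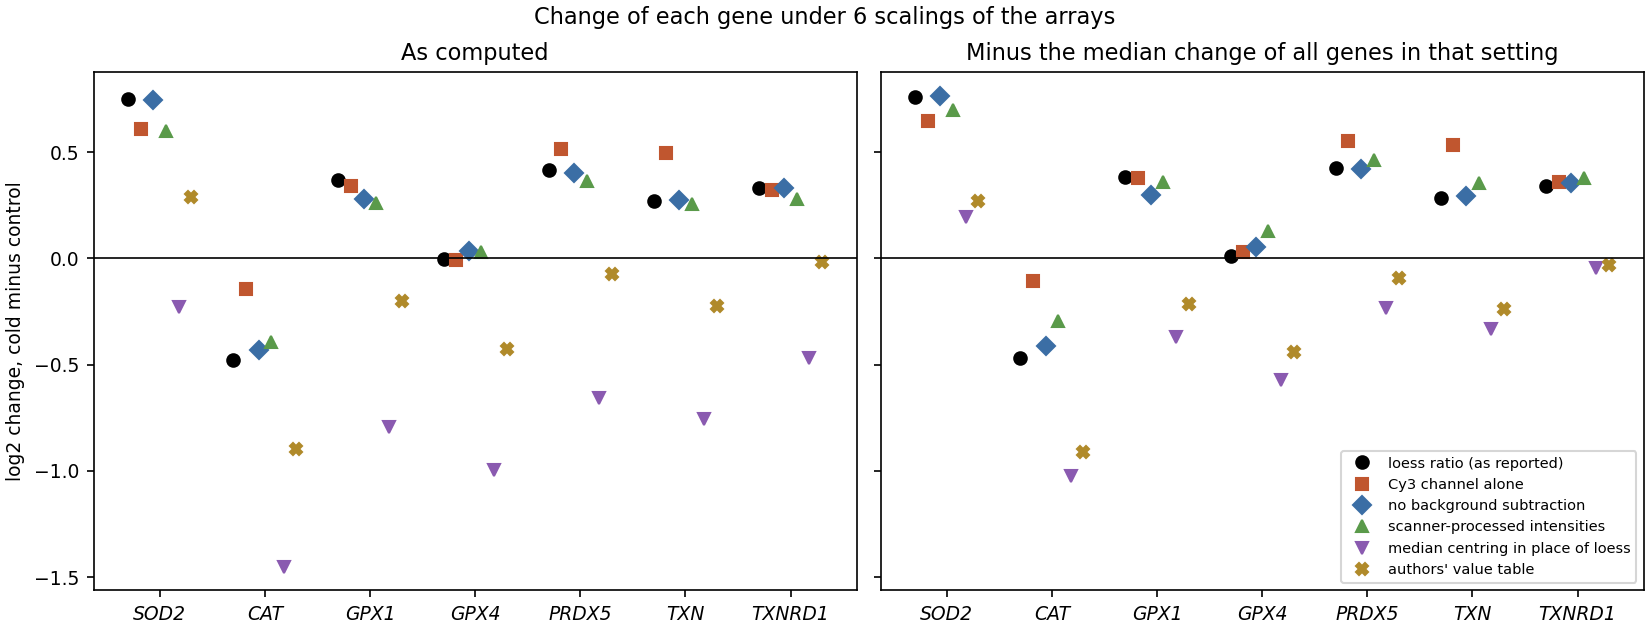
Log2 change (cold minus control) of the 7 genes under 6 scalings of the arrays, as computed (left) and relative to the median change of all genes in the same setting (right). CAT lies below zero in every setting and SOD2 above the median of all genes in every setting, while GPX1, PRDX5, TXN and TXNRD1 change sign under median centring and in the authors' table.

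Single arrays weighed on the results. Cold replicate 3 had the highest log2 ratio of the 10 arrays in 3 of the 7 genes (SOD2, PRDX5 and TXNRD1), and control replicate 4 the lowest in 4 (SOD2, GPX4, PRDX5 and TXNRD1). Without cold replicate 3, none of the 7 genes passed the unadjusted limma p under 0.01 and 4 of the wider set did, while 4.85% of all genes did. The median log2 change of the 7 genes was then 0.27. The 4 genes of the wider set that still passed were MSRA, GSS, BLVRA and NCF4.

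The PBMC label was checked against marker lists of blood cells, each scored as the mean log2 ratio of its tested markers on an array. T cell, B cell and monocyte markers such as CD3E, CD79A and CD14 were above background. So were markers of cells that a mononuclear fraction should hold few of, such as MPO of neutrophils and HBM of red cells. In bulk RNA, fewer cells of a type and less RNA per cell cannot be told apart.

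Of all genes tested, 48.0% were higher in the cold group and 8.64% passed the unadjusted limma p under 0.01. Neutrophil markers were higher in 8 of 8 tested, 4 of them past that threshold (S100A8, S100A9, MPO and PADI4). CSF3R, CXCR2, MMP9 and S100A12 did not pass. The neutrophil score ran from 0.44 to 1.18 in control and from 1.48 to 1.86 in cold ferrets. Monocyte markers were higher in 9 of 10, with 3 past the threshold and scores of 0.11 to 0.57 against 0.37 to 1.30. Platelet markers were higher in 6 of 6, with 2 past the threshold and scores of -0.04 to 1.35 against 0.84 to 1.82. SOD2, PRDX5, GPX1, TXNRD1 and NCF4 were also higher in the cold group, and the part of these lists in their values was not tested. Whether the lists and these genes varied together from array to array was not tested either. Under median centring the median log2 change of the neutrophil list was -0.04 and that of the monocyte list -0.41, which is 0.38 and 0.01 relative to all genes, while the platelet list was at 0.15 (0.58 relative). In the authors' table the medians of the neutrophil, monocyte and platelet lists were 0.41, 0.12 and 0.57.

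Erythroid markers were lower in 5 of 8 tested. HBM, a haemoglobin chain, was lower by more than any other marker (log2 change -2.56, limma p = 1.2e-04, exact permutation p = 0.00476), and 2 erythroid markers, GATA1 (0.61) and SLC25A37 (0.74), passed as higher. The erythroid score ran from 0.15 to 0.60 in control and from -0.36 to 0.11 in cold ferrets. Its separation of the groups rests on HBM, since the scores overlap once HBM is left out. The erythroid values stand beside those of CAT and PRDX2, and their part in those 2 genes was not tested.

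T cell markers were lower in 8 of 10 tested, 1 past the threshold (LCK), with scores of 0.23 to 0.41 in control and -0.71 to 0.18 in cold ferrets. These scores overlap between the groups once IL7R (log2 change -1.06) is left out. B cell markers were lower in 7 of 8, with 1 past the threshold and scores of -0.21 to 1.31 against 0.24 to 0.56. None of 6 cytotoxic and NK cell markers passed, with scores of 0.36 to 1.04 against 0.12 to 1.04. Cold replicate 3 had the lowest T cell score and the highest neutrophil, monocyte and platelet scores of the 10 arrays.

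**Figure D5:**
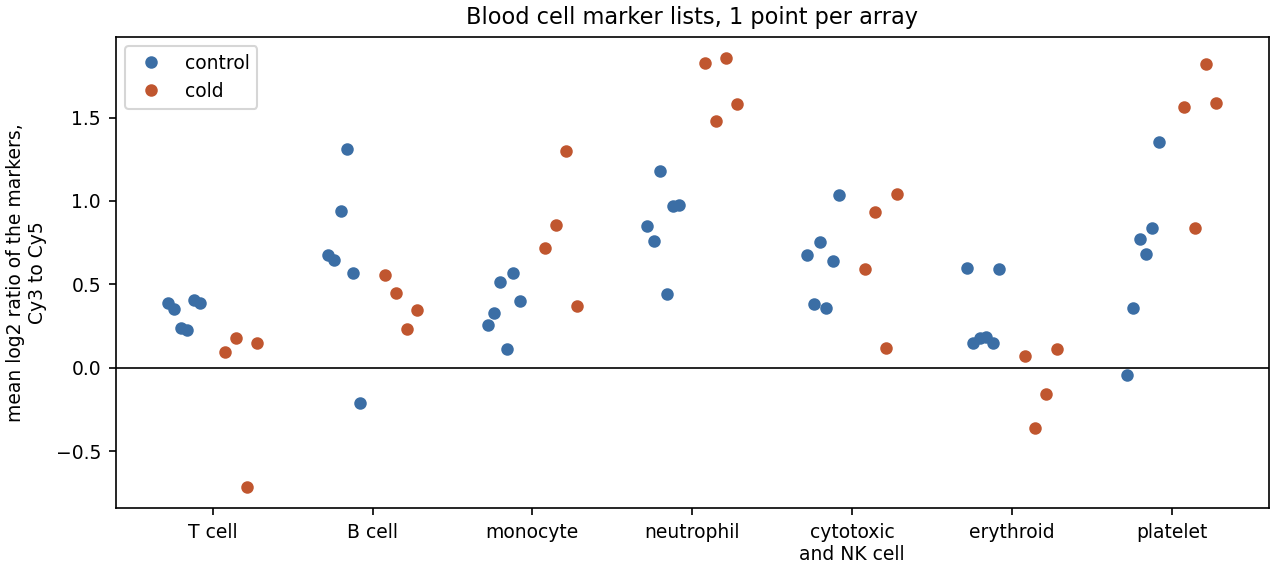
Mean log2 ratio (Cy3 to Cy5) of the tested markers of 7 blood cell lists, 1 point per array, for 6 control and 4 cold ferrets. The neutrophil scores of the cold ferrets lie above, and their T cell and erythroid scores below, those of every control ferret. Without IL7R the T cell scores of the groups overlap, and without HBM the erythroid scores do (not drawn).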

How the data were processed

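PBMC RNA of 6 control and 4 cold-exposed ferrets was hybridised to custom 2-colour Agilent arrays, with Cy3 for the ferret and Cy5 for a common reference pool. The authors deposited the median spot intensity and background in both channels, with flags of the scanner software. Their deposited table of log2 values per target sequence was set against these intensities. Within a sequence it holds mean log2 Cy3 minus mean log2 Cy5 without background subtraction, plus a constant per array and per sequence whose origin was not found (column medians of 7.87 to 8.78).

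Background was corrected with normexp (offset 50) and ratios were normalized by loess (span 0.3, 4 iterations) in limma 3.58.1 under R 4.3.3. Spots were averaged to probes and probes to genes, or to the target sequence where it had no gene symbol. A probe was kept where at least 0.5 of its spots were well above background in Cy3 on at least 4 arrays, which kept 111051 of 181312 probes. Groups were compared by lmFit and eBayes, p-values were adjusted over all 26303 genes by Benjamini-Hochberg, and single genes by a two-sided exact permutation test over 210 divisions of the arrays. The limma fit was also run on simulated arrays with known shifts, whose results are not given here.

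The genes and lists were chosen with earlier results of these data known. The 10 enzyme genes were named where matched, with every other listed gene at an unadjusted limma p under 0.01 and, in lists without one, the gene with the lowest p. Lists were written from general knowledge, and 1 listed gene is not reported here. Marker genes were named where set beside a result. Gene names came from the RefSeq ferret table. In all, 23 alternatives were run, among them other background corrections and scalings, the Cy3 channel alone, the authors' table, slide position and replicate number as blocks, and each array left out. Replicates are separate ferrets. The number of ferrets, 6 control and 4 cold, limits the precision, and arrays give no read depth. No genome coordinates or probe sequences were used here.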

Additional observations from a re-analysis of the deposited data

Results flagged for a closer look

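In 52 groups of arrays examined (control and cold arrays of each gene that the naming rule chose and of each of 7 marker lists), 4 had an array set apart from the rest of its group by a gap larger than Dixon's 95% limit, and chance alone gives about 1 in 20. The control replicate 4 array had a GPX4 log2 ratio of -2.27, where the next lowest control array had -1.72. In PRDX3 the same array had -1.03 against -0.58 in the next. Cold replicate 2 had a PRDX3 log2 ratio of -0.68, above -1.16 in the nearest cold array. The T cell marker score of cold replicate 3 was -0.71, below 0.10 in the nearest cold array.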

How the results depend on the processing

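The count of enzyme genes past the unadjusted limma p under 0.01 (2 as reported) was 0 with scanner-processed intensities, with median centring and in the authors' table, and 4 in the Cy3 channel alone and without the filter on dim probes. The share of all genes that passed moved as well, from 8.64% as reported to 5.72, 4.42, 4.14, 9.84 and 6.95% in these 5 settings in turn. That of the wider set (12 as reported) was 7, 2 and 1 in the first 3 of these settings and 22 in Cy3 alone. The count past the adjusted threshold (0 as reported) was 1 in Cy3 alone and 0 in the other 22 alternatives. Of the other genes of the wider set that passed at 0.01 as reported, BLVRA and MSRA also passed the adjusted threshold in Cy3 alone, with probes well above background on all 10 arrays, without control replicate 5 and without cold replicate 2. NCF4 did so in Cy3 alone and without control replicate 5, PRDX6 and GSS in Cy3 alone, and PRDX3 without cold replicate 2. The median log2 change of the 7 genes became -0.76 under median centring and -0.20 in the authors' table, and kept its sign elsewhere. Leaving out 1 array at a time gave 0 to 3 enzyme genes, 4 to 15 genes of the wider set and medians of 0.27 to 0.38, the lowest values of all 3 without cold replicate 3, while the share of all genes passing at 0.01 ran from 4.85 to 12.9%. Over all genes, leaving out cold replicate 2 gave 1272 genes past the adjusted threshold and leaving out control replicate 5 gave 633. CAT passed at 0.01 in 16 of the 23 alternatives and PRDX5 in 19. The methods' t-test gave 2 enzyme genes and 8 of the wider set at 0.01 (6.56% of all genes), 7 higher and 1 lower, with PRDX2, PRDX3, GPX3 and TKT no longer past it, and 0 enzyme genes after adjustment.

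Under median centring the log2 change turned in SOD2 (-0.23), GPX1 (-0.79), PRDX5 (-0.66), TXN (-0.76), TXNRD1 (-0.47), PRDX6 (-0.60), GLRX (-0.38), GSS (-0.24), BLVRA (-0.22), TKT (-0.62), NCF4 (-0.40) and MAFG (-0.29). In the authors' table it turned in GPX1 (-0.20), PRDX5 (-0.075), TXN (-0.22), TXNRD1 (-0.016), PRDX6 (-0.054) and TKT (-0.030). GPX4, at -0.00036 as reported, turned with scanner-processed intensities (0.030), without background subtraction (0.035), with the replicate block (0.038) and in 7 of the 10 settings that left out 1 array (range over all 10 of -0.11 to 0.046). Why the scalings differ was not tested.

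The deviations of same-numbered control and cold arrays had correlations of -0.30, 0.54, 0.10 and -0.19, without a common sign. Differently numbered arrays were not compared, so these values cannot tell whether replicate number pairs the arrays. With replicate number as a block, 2 enzyme genes and 17 genes of the wider set passed at 0.01 (9.35% of all genes). In that setting 0 enzyme genes passed after adjustment, and the median log2 change was 0.34. With slide position as a block 3 enzyme genes passed (7.88% of all genes).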
